A study of Mus musculus with 2 samples.

Results

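Platelets of the mouse lung were examined in 2 droplet-based scRNA-Seq libraries through the barcodes that carried platelet RNA. A barcode was a member when *Ppbp*, *Pf4*, *Gp9* and *Nrgn* together had at least 5 unique molecular identifiers (UMIs, tags that count each captured RNA molecule once) and made up at least 1% of its UMIs. A member also held at least 200 genes, at least 500 UMIs and at most 20% mitochondrial UMIs. Of 25094 barcodes in the libraries, 24725 passed these filters on genes and UMIs, and 717 were members. The Cebpa FF library held 477 of them and the Cebpa KO library 240. The members were chosen by the measured levels of these 4 gate genes, so their high share describes the rule and was not tested. The share of 1% set the edge of the gate. Between 1% and 1.2% lay 18 members of the Cebpa FF library and 17 of the Cebpa KO library. Between 0.8% and 1% lay 23 and 19 barcodes that held at least 5 UMIs of the gate genes and stayed outside. Members with fewer than 5 UMIs of the endothelial genes *Pecam1*, *Cdh5* and *Cldn5* together, called platelets alone here, numbered 440 in the Cebpa FF and 213 in the Cebpa KO library. The other 64 members, 37 and 27, carried endothelial RNA as well and are described apart as platelet-endothelial barcodes.

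The study compared the lungs of *Cebpa* fl/fl mice, labelled Cebpa FF, with those of Sftpc-CreERT2 *Cebpa* fl/fl mice (CebpaΔSftpc), labelled Cebpa KO. Tamoxifen starts the Cre recombinase of this allele, which the *Sftpc* promoter drives in type 2 alveolar epithelial (AT2) cells, so platelets and megakaryocytes were not the cells aimed at by the deletion of *Cebpa*, the gene of a transcription factor. The methods give 5 daily injections of 75 mg/kg tamoxifen, a repeat round where analysis came more than 3 months later, a mixed genetic background in both groups, and mice usually aged 3 months when used. The study included male and female mice, and the sex of those in each library is not given here. Lungs were taken 26 weeks after the first injection, perfused with cold PBS, digested with Liberase DL and DNase I, and treated with red blood cell lysis buffer. The study states 3 mice per genotype, but there was 1 library per genotype and a barcode does not name its mouse. Each genotype was therefore 1 sample, no difference between genotypes has a replicate check, and all intervals are 95% intervals that cover counting error only. The labels mention cell sorting and the methods a suspension of the whole lung, so shares refer to the barcodes deposited. The Cebpa FF library held 69200420 UMIs in 11721 barcodes and the Cebpa KO library 64697396 UMIs in 13373 barcodes. The shallowest deposited barcode had 500 UMIs in the Cebpa FF library and 766 UMIs in the Cebpa KO library. Of the deposited barcodes, 45 were found in both libraries, among them 1 Cebpa FF member and 0 Cebpa KO members.

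Platelets are small fragments without a nucleus that megakaryocytes shed into the blood, in the bone marrow and also in the vessels of the lung. They keep RNA and granules made by the megakaryocyte and release them when a vessel wall is injured. Their surface carries receptors for von Willebrand factor, fibrinogen and collagen, and a dense actin and tubulin cytoskeleton changes their shape. GATA1 with ETS factors such as FLI1 is known to drive megakaryocyte genes.

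Because these factors bind short motifs, the 250 bases before the RefSeq start of the gene are shown for 3 gate genes and for *Itga2b*, the marker that the gate did not use. In the sequences, capitals mark every GATAA and GGAAG on either strand (TTATC and CTTCC on the strand shown), and the letters of the motifs do not overlap each other. They were taken from RefSeq on GRCm38.p6 and are written 5′ to 3′ on the strand of the gene. *Ppbp*, which encodes the precursor of the chemokine CXCL7, has its window on the plus strand at chr5:90768268-90768517. *Pf4*, which encodes platelet factor 4, has it on the plus strand at chr5:90772185-90772434. *Gp9*, which encodes a subunit of the receptor for von Willebrand factor, has it on the plus strand at chr6:87777820-87778069. *Itga2b*, which encodes the integrin subunit αIIb of the fibrinogen receptor, has it on the minus strand at chr11:102469884-102470133. The start of *Itga2b* differs between annotations: GENCODE places it at 102470122, so most of this window lies inside the gene by GENCODE. The window of *Nrgn*, counted below and not shown, lies on the minus strand at chr9:37552746-37552995. It also reaches into its gene by GENCODE, which places that start at 37552904.
Ppbp: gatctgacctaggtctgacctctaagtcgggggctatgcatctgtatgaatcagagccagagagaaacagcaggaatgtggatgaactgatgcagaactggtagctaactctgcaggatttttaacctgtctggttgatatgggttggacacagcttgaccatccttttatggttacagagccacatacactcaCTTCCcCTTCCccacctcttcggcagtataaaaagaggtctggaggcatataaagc
Pf4: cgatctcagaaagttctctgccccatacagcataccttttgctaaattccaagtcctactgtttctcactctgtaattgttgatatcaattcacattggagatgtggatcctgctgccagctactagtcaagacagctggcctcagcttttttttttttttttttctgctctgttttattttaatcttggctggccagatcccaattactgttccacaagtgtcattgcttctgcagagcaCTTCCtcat
Gp9: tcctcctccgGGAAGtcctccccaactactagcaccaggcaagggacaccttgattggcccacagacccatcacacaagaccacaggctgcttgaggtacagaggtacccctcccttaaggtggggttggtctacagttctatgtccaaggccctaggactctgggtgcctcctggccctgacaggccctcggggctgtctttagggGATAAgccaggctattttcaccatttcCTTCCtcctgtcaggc
Itga2b: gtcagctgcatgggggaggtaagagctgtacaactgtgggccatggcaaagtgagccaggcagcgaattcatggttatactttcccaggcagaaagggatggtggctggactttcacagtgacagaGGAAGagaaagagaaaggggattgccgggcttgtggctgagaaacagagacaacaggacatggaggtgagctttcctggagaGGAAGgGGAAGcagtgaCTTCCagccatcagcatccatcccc

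GGAAG stood in all 5 windows looked at, 2 times for *Ppbp*, 1 time for *Pf4*, 2 times for *Gp9*, 4 times for *Itga2b* and 1 time for *Nrgn*, which encodes the calmodulin-binding protein neurogranin. GATAA stood in the window of *Gp9* alone, 1 time. Of 32851 RefSeq promoter windows of this length, 64.1% held GGAAG, 22.6% held GATAA and 13.2% held both, so these matches are a description of the letters and not of binding sites.

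The label was checked against the markers. *Itga2b* was at 2916 CPM (counts of a gene per 1000000 UMIs, summed over the barcodes of a class) in platelets alone of the Cebpa FF library and at 3132 CPM in those of the Cebpa KO library. In all barcodes outside the gate it was at 7.52 and 13.3 CPM. At least 1 *Itga2b* UMI was found in 88.9% and 93.0% of platelets alone. After each barcode was thinned to 500 UMIs the shares were 73.0% and 70.0%, against 0.333% and 0.914% of endothelial barcodes outside the gate. All 4 gate genes were present in 373 of 440 (84.8%) and 188 of 213 (88.3%) platelets alone. These counts describe the genes that chose the members, while *Itga2b* was not used by the gate. The genes with the highest level over the barcodes outside the gate, taken as the ratio of CPM plus 10, were *Ppbp* (399 times in the Cebpa FF and 265 times in the Cebpa KO library), *Pf4*, *Nrgn*, *Clec1b*, *Gp9*, *Itga2b*, *Alox12*, *Treml1*, *Gp5*, *Rgs10*, *Rgs18*, *Tubb1*, *Fermt3*, *Prkar2b* and *F5*. Apart from the gate genes these are receptors, enzymes, signalling proteins and tubulin of platelets, and their order describes the class.

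The megakaryocyte side of the label rested on less. A megakaryocyte has a large polyploid nucleus, and the nuclear RNA *Malat1* is among the most abundant transcripts of nucleated cells in such libraries. *Malat1* was at 3111 CPM (2962 to 3265) in platelets alone of the Cebpa FF library and at 6598 CPM (6343 to 6861) in those of the Cebpa KO library, against 49695 and 32466 CPM in barcodes outside the gate. Its median share per barcode was 0.293% and 0.330%, against 4.86% and 3.07% outside the gate. In 24 Cebpa FF and 3 Cebpa KO platelets alone no *Malat1* UMI was found. A share of 2% or more was found in 3 of 440 and 15 of 213 platelets alone, against 81.8% and 71.1% of barcodes outside the gate. Of these, 1 and 7 had fewer than 5 UMIs of every list of another cell type. Most platelets alone thus had little nuclear RNA.

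Depth was low as well. Platelets alone held a median of 987 UMIs (500 to 9086) and 474.5 genes in the Cebpa FF library, and 1458 UMIs (778 to 12623) and 700 genes in the Cebpa KO library. Endothelial barcodes outside the gate held a median of 5032.5 and 3904 UMIs. The mitochondrial share was not high, with a median of 2.70% and 2.63% in platelets alone and 3.21% and 3.12% in barcodes outside the gate. *Malat1* became scarcer as depth rose: in barcodes from 500, from 1000 and from 3000 UMIs, each up to the next limit and the last under 10000, it was at 5178, 2405 and 1094 CPM in the Cebpa FF library (224, 204 and 12 barcodes). In the Cebpa KO library it was at 7562, 5849 and 2629 CPM (41, 149 and 22 barcodes). Of the platelets alone with at least 3000 UMIs, 0 of 12 and 2 of 23 had a *Malat1* share of 2% or more. The deepest Cebpa KO platelet alone, with 12623 UMIs, had 570 *Malat1* UMIs (4.52%) and 186 gate UMIs, together with 139 UMIs of the fibroblast list.

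**Figure D1:**
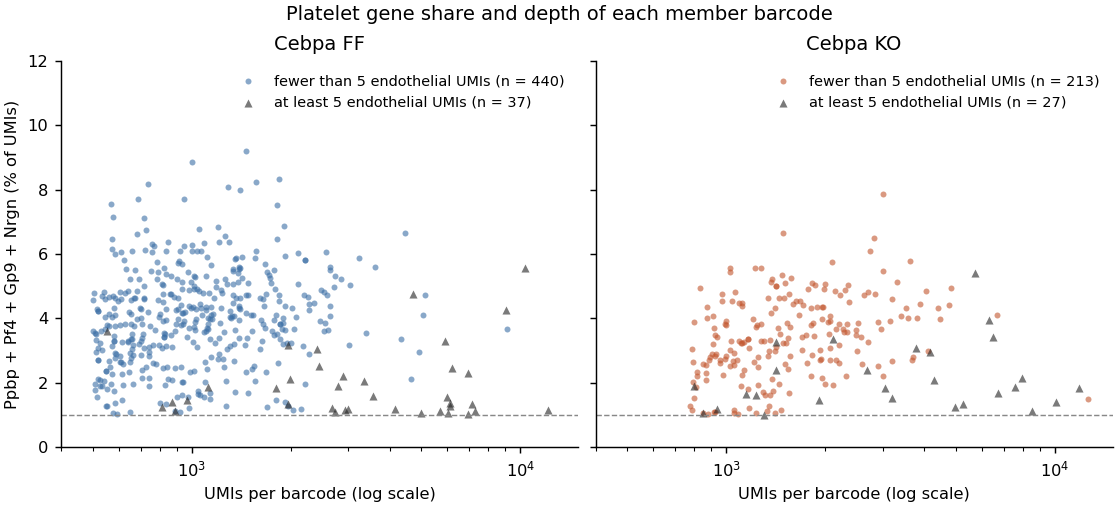
Each point is 1 member barcode of the Cebpa FF (left) or Cebpa KO (right) library, with its UMIs on a log axis and the share of its UMIs from *Ppbp*, *Pf4*, *Gp9* and *Nrgn* in percent. Circles are platelets alone (440 and 213), triangles platelet-endothelial barcodes (37 and 27), and the dashed line is the minimum share of 1%; Cebpa FF points reach down to 500 UMIs and Cebpa KO points to 778.

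**Figure D2:**
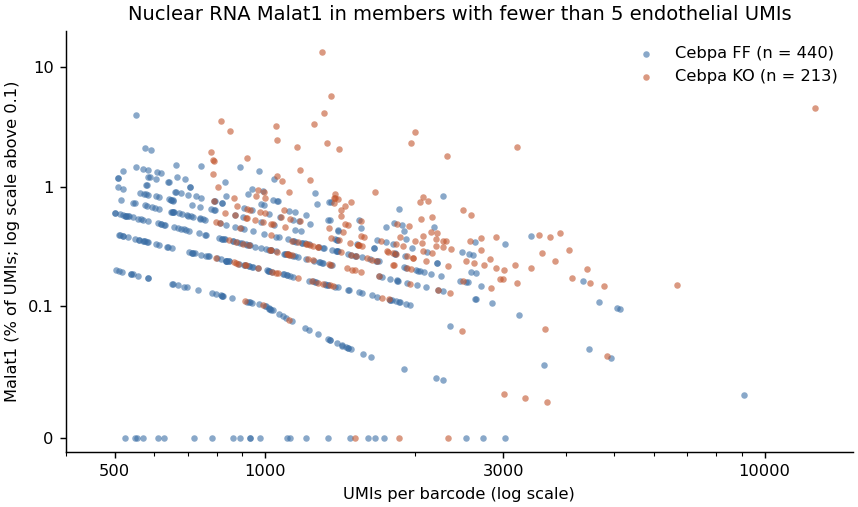
Each point is 1 of the platelets alone, with its UMIs on a log axis and the percent of its UMIs from *Malat1* (linear below 0.1, log above). Most points of either library lie under 1% (26 of 440 and 25 of 213 were at or above it), and the deepest Cebpa KO barcode is at 4.52%.

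Megakaryocyte regulators were found in both libraries. *Nfe2*, a factor needed for platelet release, was at 379 and 290 CPM in platelets alone of the Cebpa FF and Cebpa KO library, against 1.95 and 10.5 CPM outside the gate, and *Gata1*, the erythroid and megakaryocyte factor, at 100 and 62.7 CPM. Over the 3 depth ranges given above *Nfe2* was at 138, 385 and 1057 CPM in the Cebpa FF and at 54.8, 281 and 438 CPM in the Cebpa KO library, and *Gata1*, which had 4 and 1 UMIs in the lowest range, was at 118 and 222 CPM and at 56.2 and 107 CPM in the others, with intervals that overlapped in both libraries. In the deepest Cebpa KO barcode, which lies above these ranges, *Nfe2* was at 158 CPM and *Gata1* at 0. Of 11 genes of the list of megakaryocyte transcription factors, 7 had at least 50 UMIs over both libraries, with a median log2 ratio of -0.42 (-0.68 to -0.04), and none was 2-fold apart. The intervals of *Nfe2* (-0.39, -0.73 to -0.04) and *Fli1* (-0.42, -0.81 to -0.04) lay below 0, while those of *Gata1*, *Gata2*, *Mef2c*, *Runx1* and *Tal1* included it. Of all 1937 genes measured, 996 had a ratio below 0. Genes of proliferating cells were near 0: over 10 cell cycle genes there were 15 and 11 UMIs, of which *Pcna* had 11 and 7, while *Mki67* had 0 and 3, *Top2a* 1 and 1, and *Cdk1* 0 and 0. The list summed to 28.4 and 28.7 CPM, and to 77.9 and 161 CPM in all barcodes outside the gate. It was low there as well, so it does not decide the name. Nuclear RNA was scarce in most platelets alone, and the members are called platelets here.

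Platelets took a smaller share of the Cebpa KO library. Members were 477 of 11487 kept barcodes of the Cebpa FF library, 4.15% (Clopper-Pearson interval 3.79 to 4.53), and 240 of 13238 of the Cebpa KO library, 1.81% (1.59 to 2.05). The log2 ratio was -1.20 (-1.43 to -0.97). The size of this difference, and at high depth its direction, changed with depth. Of the Cebpa FF members, 144 of 477 (30.2%) had fewer than 766 UMIs, a range in which the Cebpa KO library held no barcode at all. Among barcodes with at least 766 UMIs the shares were 3.04% and 1.81% (log2 ratio -0.74, -0.99 to -0.50). Among those with at least 1000 UMIs they were 2.34% and 1.67% (-0.49, -0.77 to -0.21). Among those with at least 3000 UMIs they were 0.378% (31 of 8209) and 0.628% (39 of 6212), which is the opposite direction (0.73, 0.02 to 1.46). The minimum total in the deposited files and the genotype cannot be told apart, and no share was compared as a number of platelets in the lung.

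Few genes of platelets alone were 2-fold apart between the libraries. In platelets alone, 1937 genes had at least 50 UMIs over both libraries. Of these, 50 (2.58%) were at least 2-fold higher and 27 (1.39%) at least 2-fold lower in the Cebpa KO library, with a median log2 ratio of -0.01. Of the 85 genes in 6 lists of platelet function, 70 had at least 50 UMIs, and none of them was 2-fold higher or lower. Their median log2 ratio was -0.01 as well, with 34 higher and 36 lower, from -0.69 (*Lat*) to 0.93 (*Timp3*). With few of all 1937 genes 2-fold apart, the lack of such genes does not set the 6 lists apart from other genes. These lists and all members were chosen with earlier results of these data known.

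Among receptors and adhesion proteins, 15 of 17 genes were measured, 7 higher and 8 lower in the Cebpa KO library (median log2 ratio -0.02). *Itgb3*, the β3 subunit that pairs with *Itga2b*, was at 1083 and 1345 CPM in the Cebpa FF and Cebpa KO library (0.31, 0.14 to 0.49). *Gp6*, the collagen receptor, was at 602 and 473 CPM (-0.35, -0.62 to -0.08). *Clec1b*, the receptor CLEC-2 for podoplanin, was at 4731 and 4676 CPM (-0.02, -0.11 to 0.07). *Gp5*, which belongs to the receptor complex of von Willebrand factor, was at 1117 and 1118 CPM (0.00, -0.18 to 0.18). For the collagen receptor and the β3 integrin the intervals did not include 0, and the differences stayed under 2-fold.

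The gate genes are given as a description. In the Cebpa FF and Cebpa KO library *Pf4* was at 15689 and 16642 CPM, *Ppbp* at 8991 and 8320 CPM and *Gp9* at 3184 and 2659 CPM. *Nrgn* was at 13493 CPM (13181 to 13810) and 8322 CPM (8036 to 8616), the lowest log2 ratio of the 4 (-0.70, -0.76 to -0.64). By depth it was at 14227, 13345 and 12179 CPM in the 3 ranges of the Cebpa FF library and at 8082, 8380 and 8918 CPM in those of the Cebpa KO library.

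Granule cargo was measured for 16 of 20 genes, 7 higher and 9 lower (median log2 ratio -0.02). *Thbs1*, thrombospondin of the alpha granule, was at 2967 and 4124 CPM (0.48, 0.37 to 0.58). *Timp3*, an inhibitor of metalloproteinases, was at 104 and 199 CPM (0.93, 0.41 to 1.46), and *Sparc*, a matrix protein of the granules, at 98.4 and 183 CPM (0.89, 0.35 to 1.44). The *Timp3* ratio was 0.69 without the deepest Cebpa KO barcode, which held 14 of its 76 UMIs there. That barcode held 3 *Sparc* UMIs, and without it the *Sparc* ratio was 0.88 (0.33 to 1.43). On the lower side were *Pdgfa*, a growth factor for mesenchymal cells, at 282 and 180 CPM (-0.65, -1.08 to -0.23), and *Srgn*, the proteoglycan that packs granule proteins, at 4154 and 3197 CPM (-0.38, -0.48 to -0.28). *Vwf* (1153 and 1118 CPM), the coagulation factor *F5* (1028 and 998 CPM) and the serotonin transporter *Slc6a4* (611.5 and 606 CPM) differed by less than their counting error. Of these cargo genes, *Thbs1*, *F5* and *Slc6a4* belong to the wider set, given below, of genes that platelets hold above other barcodes. *Timp3*, *Sparc*, *Pdgfa*, *Srgn* and *Vwf* do not, and the part of RNA from other cells in their ratios was not tested.

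Of receptors for soluble agonists, 4 of 10 genes had enough UMIs. *P2ry12*, the ADP receptor that is the target of clopidogrel, was at 292 and 293 CPM (0.00, -0.36 to 0.37). *P2rx1*, an ATP-gated channel, was at 282 and 358 CPM (0.34, 0.00 to 0.69), and *F2rl2*, the thrombin receptor PAR3, at 413 and 300 CPM (-0.46, -0.80 to -0.13). *P2ry1*, the other ADP receptor, was at 134 and 112 CPM (-0.26, -0.84 to 0.31). Of these 4 genes the interval of the thrombin receptor alone lay below 0, and for both ADP receptors it included 0. All 6 eicosanoid genes were measured. *Alox12*, the platelet 12-lipoxygenase, was at 2586 and 2589 CPM (0.00, -0.12 to 0.12), while *Alox5ap*, which serves 5-lipoxygenase, was at 1024 and 697 CPM (-0.55, -0.77 to -0.34). *Ptgs1*, the cyclooxygenase that aspirin blocks in platelets, was at 360 and 306 CPM (-0.24, -0.58 to 0.10).

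Signalling was measured for 14 of 16 genes, 7 higher and 7 lower (median 0.00). *Plek*, pleckstrin, the main substrate of protein kinase C in platelets, was at 4854 and 3328 CPM (-0.54, -0.64 to -0.45). *Fermt3*, kindlin-3, which activates integrins, was at 2692 and 2926 CPM (0.12, 0.01 to 0.23), and among barcodes with at least 766 UMIs the interval included 0 (0.05, -0.07 to 0.16). The cytoskeleton list, 15 of 16 genes, had the highest median of the 6 lists (0.08, 9 higher and 6 lower). *Tubb1*, the β1-tubulin of the platelet rim, was at 780 and 985 CPM (0.34, 0.13 to 0.54). *Tmsb4x*, thymosin β4, was the most abundant gene of platelets alone in either library, at 77245 and 73962 CPM (-0.06, -0.08 to -0.04), and *Actb* was at 20924 and 17031 CPM (-0.30, -0.34 to -0.25). Genes of each list therefore went in both directions.

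**Figure D3:**
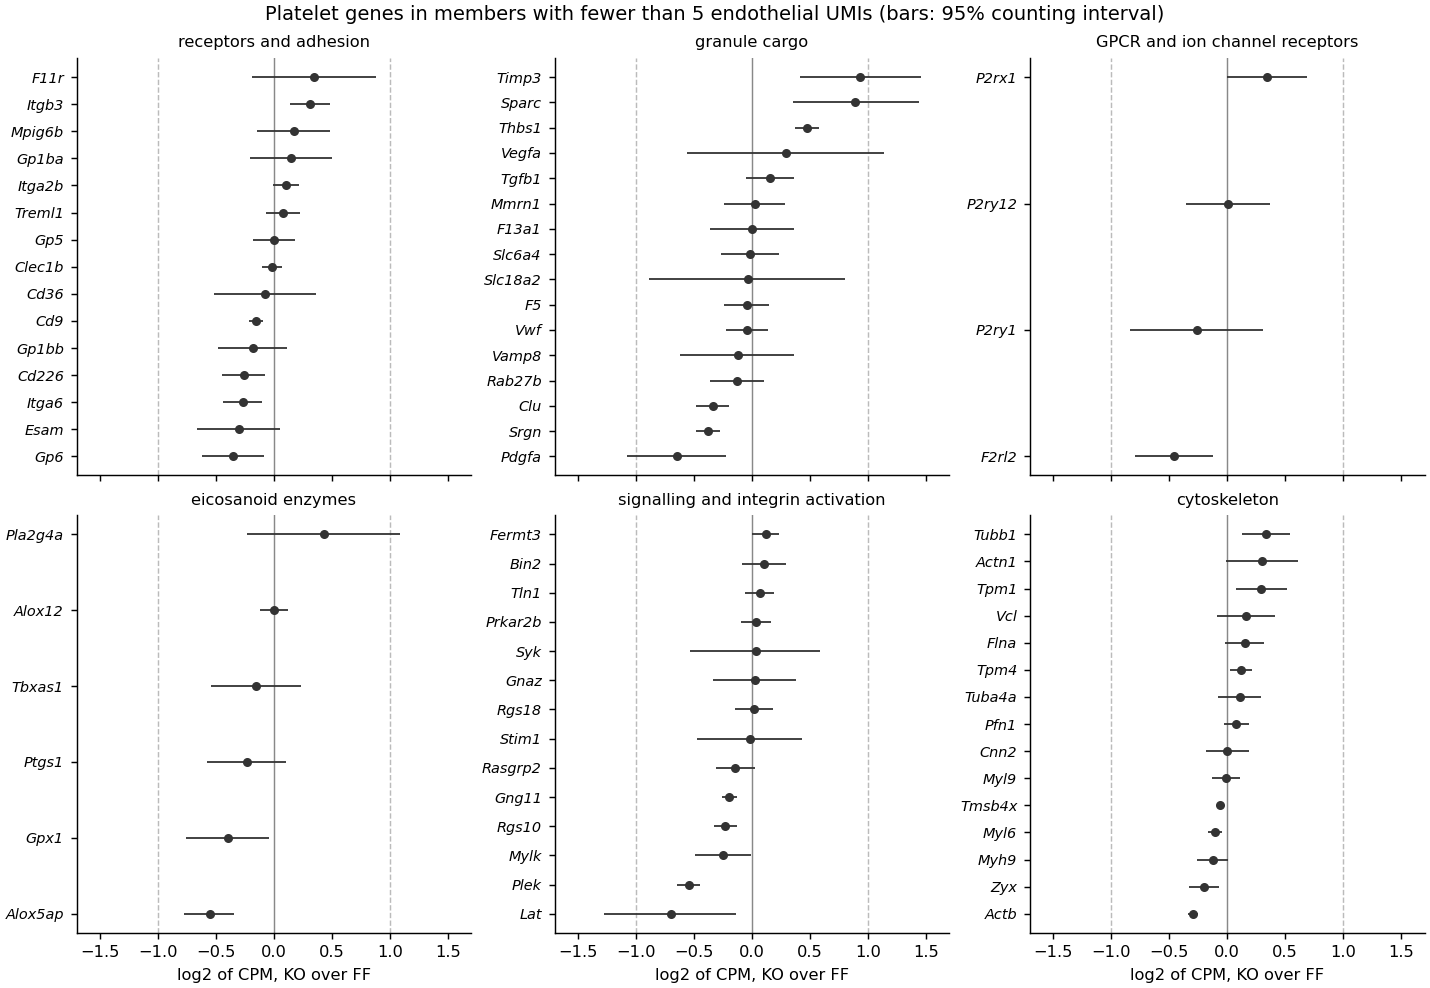
Log2 ratio of CPM (Cebpa KO over Cebpa FF) in platelets alone for the 70 of 85 platelet genes with at least 50 UMIs, 1 panel per list, with 95% counting intervals as bars. Dashed lines mark 2-fold and none of the points lies beyond them, while intervals of low genes such as *Timp3* and *Lat* cross them.

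Among the most abundant genes outside these lists some differed between the libraries, by less than 2-fold. After *Tmsb4x*, the highest level was that of *Gm42418*, which overlaps ribosomal RNA sequence, at 40803 and 61476 CPM (0.59, 0.56 to 0.62). It was higher outside the gate as well (0.93). *Ctla2a*, a cysteine protease inhibitor, was at 17859 and 16242 CPM (-0.14), and *Fth1*, the ferritin heavy chain, at 13694 and 9636 CPM (-0.51, -0.56 to -0.45). *Tsc22d1*, a transcription regulator that responds to TGF-β, was at 7056 and 4587 CPM (-0.62, -0.70 to -0.54) and ranked among the 15 highest in the Cebpa FF library only.

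Genes that platelets hold above other barcodes were looked at as a wider set, chosen after values were seen. Levels in platelets alone and outside the gate were compared as the ratio of CPM plus 10. Of the 1937 genes, 141 were at least 10 times higher in platelets alone by this ratio, with the libraries pooled. Of these, 1 was 2-fold higher and 1 was 2-fold lower in the Cebpa KO library. A total of 111 reached the limit in each library and 0 of them passed 2-fold, but that limit removes genes that differ, just as the pooled one lets in genes that are high in 1 library, and both sets hold the gate genes. The counts are therefore a description. For *Tpm2* the ratio of CPM plus 10 over the level outside was 7.28 in the Cebpa FF and 14.7 in the Cebpa KO library. The Cebpa KO library thus decided the entry of this gene. *Tpm2*, β-tropomyosin of the actin filament, was at 454 CPM (240 UMIs) and 1053 CPM (403 UMIs), a log2 ratio of 1.21 (0.98 to 1.45). It was found in 131 Cebpa FF and 123 Cebpa KO platelets alone, no member held more than 15 of its UMIs, and outside the gate it was at 53.8 and 62.5 CPM. *Gsta2*, a glutathione S-transferase, was at 259 and 91.4 CPM (-1.50, -2.08 to -0.96). Its ratios of CPM plus 10 over the level outside were 25.8 and 9.66. *Gsta2* lies in a family of similar genes, so its reads may be shared with a paralog. Of 1342 genes that were under 2 times the level outside, 47 (3.50%) were higher and 13 (0.969%) lower by 2-fold. Of the 454 genes between these limits, 2 (0.441%) were higher and 13 (2.86%) lower.

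The genes with the highest ratios in platelets alone were mostly not platelet genes. *Chil3*, a chitinase-like protein of macrophages and neutrophils, had 3 UMIs in the Cebpa FF and 75 UMIs in the Cebpa KO library, a log2 ratio of 5.11 (3.51 to 7.42), against 8.53 in the barcodes outside the gate. *S100a8* and *S100a9*, which together encode calprotectin of neutrophils, had 3 and 8 UMIs against 70 and 82 UMIs (5.01 and 3.82), and outside the gate the ratios were 6.83 and 7.04. *Coro1a*, an actin-binding protein of leukocytes, had a ratio of 2.84 (4.37 outside). These 4 genes were also higher outside the gate in the Cebpa KO library, and by more. Of all 50 higher genes, 32 had a ratio above 0 outside and 12 were also 2-fold higher there, while 8 lay past 0.5 on the log2 scale the other way. Of the 27 lower genes, 14 had a ratio below 0 outside, 2 were also 2-fold lower there and 4 lay past 0.5 the other way. After thinning to 500 UMIs, *S100a8* was found in 0.227% (0.00575 to 1.26) and 10.8% (6.97 to 15.8) of platelets alone and in 0.147% (0.0732 to 0.262) and 11.5% (10.8 to 12.2) of endothelial barcodes outside the gate, a cell type that should lack it. *S100a9* was found in 1.36% and 13.6% of platelets alone and in 0.0932% and 12.8% of those endothelial barcodes. In the Cebpa KO library these shares did not exceed those of endothelial barcodes by more than counting error and are not told apart from background here. Their source was not tested. In the Cebpa FF library the share of *S100a9* was above that of endothelial barcodes. It was found in 6 of 440 platelets alone (0.502 to 2.94%) against 7 of 7508 endothelial barcodes (0.0375 to 0.192%).

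Leukocyte markers themselves were close to 0. The neutrophil list had 10 UMIs over 3 of 6 genes in the Cebpa FF and 32 UMIs over 5 of 6 genes in the Cebpa KO platelets alone, its gene *Ly6g* had 0 UMIs in either, and no platelet alone held 5 of its UMIs. The monocyte and macrophage list had 29 and 36 UMIs, the B cell list 5 and 27, the T and NK cell list 2 and 15, and the mast cell and basophil list 2 and 1. Of 653 platelets alone, 1 reached 5 UMIs of any of these 5 lists. By these lists, a platelet together with a leukocyte was nearly missing among platelets alone. The rule itself works toward this, since a platelet with a deep leukocyte reaches 1% of UMIs less easily. Monocyte and macrophage barcodes outside the gate had a median of 8656 and 10011 UMIs. Under the 1% share, however, 15 of 98 (15.3%) monocyte and macrophage barcodes of the Cebpa FF library held at least 5 gate UMIs, and 43 of 1016 (4.23%) of the Cebpa KO library did.

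MHC class II genes of platelets alone were higher in the Cebpa KO library at low levels. In platelets alone *Cd74*, the invariant chain, was at 165 and 397 CPM (1.27, 0.88 to 1.67), *H2-Ab1* at 68.2 and 201 CPM (1.56, 0.97 to 2.17), *H2-Eb1* at 51.1 and 128 CPM (1.32, 0.62 to 2.06) and *H2-Aa* at 70.1 and 138 CPM (0.98, 0.35 to 1.63). Outside the gate their ratios were 1.04 to 1.44 at higher levels. Thinned to 500 UMIs, *Cd74* was found in 7.27% and 15.5% of platelets alone, below the 21.1% and 39.0% of endothelial barcodes outside the gate. These 4 genes, of which 3 passed 2-fold beside 2.58% of all genes measured, were also the only ones of a list of 9 immune megakaryocyte genes with at least 50 UMIs. That list summed to a log2 ratio of 1.32 in platelets alone and 1.15 outside the gate, but to -0.04 (-0.39 to 0.31) in platelet-endothelial barcodes. Of its other genes, *Tlr2* (0 and 6 UMIs), *Tlr4* (1 and 0), *Cxcr4* (2 and 3) and *Ccr7* (1 and 2) were hardly found. Of MHC class I and interferon genes, 6 of 9 were measured and 0 passed 2-fold, with *H2-K1* the highest at 483 and 776 CPM (0.68, 0.44 to 0.93). *Cebpa* itself had 18 and 8 UMIs in platelets alone (-0.71, -2.12 to 0.57), too few for a direction.

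*Fos*, a subunit of AP-1 that is induced early in many responses, was at 45.4 and 287 CPM (2.66, 2.01 to 3.36), and it was at 509 and 714 CPM outside the gate (0.49). The deepest Cebpa KO barcode held 58 of its 110 UMIs, and without it the ratio was 1.63. Other early response genes, looked at after values were seen, had ratios of 1.22 (*Junb*), 1.23 (*Egr1*), 0.82 (*Ier2*), 0.73 (*Dusp1*) and 0.28 (*Jun*). *Klf2* and *Atf3* were also looked at, and their values are not given here. Without that barcode the ratio was 0.88 (0.27 to 1.49) for *Junb*, 0.74 (-0.02 to 1.51) for *Ier2*, 0.58 (-0.08 to 1.25) for *Dusp1*, 0.51 (-0.27 to 1.29) for *Egr1* and 0.13 (-0.36 to 0.62) for *Jun*. *Btg2* (2.02), *Zfp36* (1.83) and *Cebpb* (1.59), which respond to growth factors or inflammation, had 44, 36 and 35 UMIs in the Cebpa KO library. *Nfix* (1.55) was at 1.10 without the deepest barcode, and in *Gm26917* (2.87) another barcode held 28 of 85 UMIs. Of the nuclear RNAs, *Malat1* had a log2 ratio of 1.08 (0.99 to 1.18), which was 0.76 without the deepest barcode and 1.41 among barcodes with at least 766 UMIs, while *Neat1* was at 204 and 509 CPM (1.32, 0.97 to 1.67) and *Xist*, the X-inactivation RNA, at 66.3 and 154 CPM (1.22, 0.59 to 1.86). Outside the gate *Malat1* went the other way (-0.61), and *Neat1* was at 325 and 443 CPM. These were the 3 nuclear RNAs with at least 50 UMIs, of 5 listed. The level of *Xist* depends on the sex of the mice. Its ratio therefore cannot be told apart from a difference in sex between the libraries. In all 3 depth ranges given above the *Malat1* level was higher in the Cebpa KO library. The 15 Cebpa KO platelets alone with a *Malat1* share of 2% or more held 1287 of its 2526 UMIs (51.0%), and the 3 such Cebpa FF barcodes held 46 of 1643. Without these barcodes, which their *Malat1* share picked out, *Malat1* had a ratio of 0.22 (0.11 to 0.33), *Neat1* of 1.31 and *Xist* of 1.01.

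**Figure D4:**
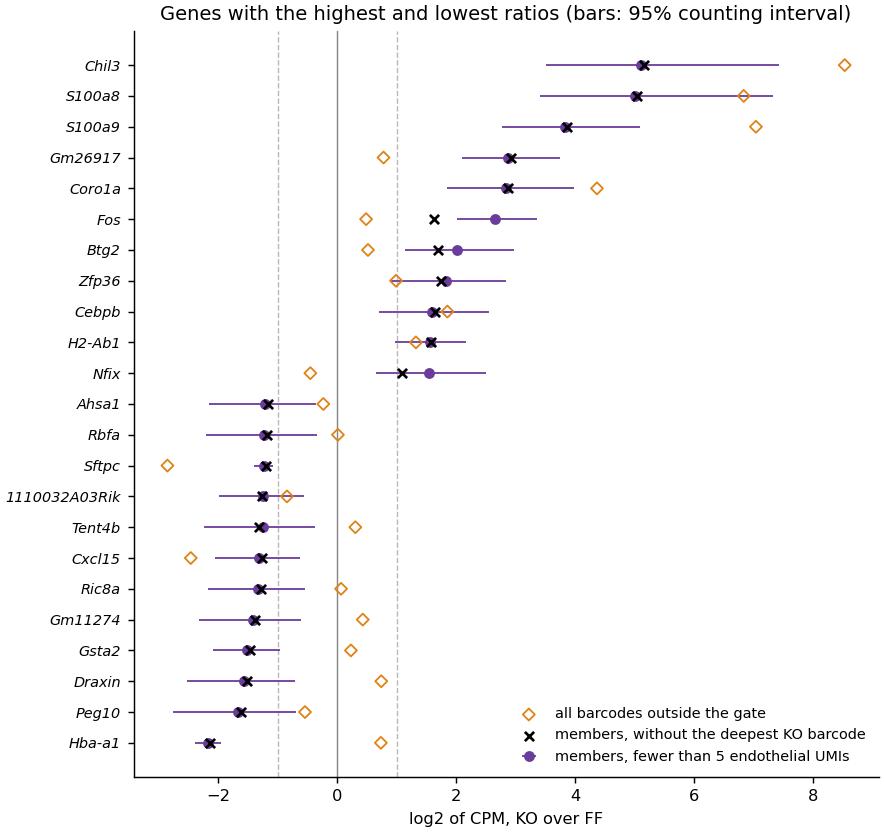
Log2 ratio of CPM (Cebpa KO over Cebpa FF) in platelets alone for 11 genes with the highest and 12 with the lowest ratios, with 95% counting intervals as bars. Crosses show the ratio without the deepest Cebpa KO barcode, where *Fos* moves from 2.66 to 1.63, and open diamonds show all barcodes outside the gate, where *Hba-a1* is on the other side (0.74 against -2.17).

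The lowest ratio belonged to a hemoglobin gene. *Hba-a1*, an α-globin of red blood cells, had 1337 UMIs (2531 CPM) in platelets alone of the Cebpa FF library and 216 UMIs (564 CPM) in those of the Cebpa KO library, a log2 ratio of -2.17 (-2.38 to -1.96). Outside the gate it went the other way (0.74). The other globin genes differed among themselves. *Hbb-bt* was also lower, with 65 and 27 UMIs (-0.80, -1.51 to -0.14), whereas *Hbb-bs* was higher, with 86 and 92 UMIs (0.56, an interval above 0), and *Hba-a2*, with 55 and 45 UMIs, had an interval that included 0 (0.17, -0.43 to 0.77). Per *Hba-a2* UMI there were 24.3 *Hba-a1* UMIs (18.6 to 32.4) in Cebpa FF and 4.80 (3.47 to 6.77) in Cebpa KO platelets alone, against 1.34 and 1.31 outside the gate. The globin genes of platelets alone were thus not in the ratio seen in the other barcodes of the same library. *Hba-a1* and *Hba-a2* are near-identical copies and the split of their reads is uncertain, but the contrast with *Hbb-bs* does not rest on that split.

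*Hba-a1* was spread over many members. At least 1 UMI was found in 247 of 440 (56.1%) Cebpa FF and 80 of 213 (37.6%) Cebpa KO platelets alone, and in 6.13% and 14.3% of endothelial barcodes outside the gate. After thinning to 500 UMIs the shares were 44.5% and 20.2% in platelets alone, and 1.03% and 5.23% in those endothelial barcodes. Of the platelets alone with *Hba-a1*, 171 of 247 (69.2%) and 41 of 80 (51.2%) had no UMI of the other 3 globin genes, against 71.5% and 37.2% of the endothelial barcodes with *Hba-a1*. The highest member held 145 and 15 of its UMIs. Platelet-endothelial barcodes held 17.7 and 8.40 *Hba-a1* UMIs per *Hba-a2* UMI. Of the 443 *Hba-a1* UMIs of their Cebpa FF class, 1 barcode held 191, and without it there were 16.8 per *Hba-a2* UMI.

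The other 11 genes at the low end held 45 to 1406 Cebpa FF UMIs. *Sftpc*, surfactant protein C of AT2 cells, was at 2662 and 1136 CPM (-1.23), and *Cxcl15*, a chemokine of lung epithelium, at 150 and 60.1 CPM (-1.32). Outside the gate both were lower by more (-2.85 and -2.46). *Peg10* (-1.66), *Draxin* (-1.56), *Gm11274* (-1.42), *Ric8a* (-1.32), *Tent4b* (-1.25), *1110032A03Rik* (-1.24), *Rbfa* (-1.22) and *Ahsa1* (-1.21) had between 45 and 75 UMIs in the Cebpa FF and 11 to 23 UMIs in the Cebpa KO library. *Draxin* and *Gm11274*, like *Gsta2*, were under 1 CPM outside the gate in either library.

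RNA of epithelial cells and red cells was found in many members. At least 5 UMIs of the alveolar list were held by 41.4% of Cebpa FF and 8.92% of Cebpa KO platelets alone, at least 5 of the airway list by 3.18% and 23.0%, and at least 5 of the erythroid list by 18.6% and 8.92%. Any other cell type list reached 5 UMIs in 237 of 440 (53.9%) and 72 of 213 (33.8%) of them. The alveolar list summed to 3627 and 2064 CPM over 8 of 8 genes, led by *Sftpc*. The airway list summed to 937 and 1954 CPM over 7 of 7 genes, led by *Scgb1a1*, the club cell secretory protein, at 825 and 1849 CPM. The fibroblast list had 195 and 254 UMIs, led by *Dcn* with 65 and 132 UMIs, most of the latter in the deepest Cebpa KO barcode. In endothelial barcodes outside the gate the alveolar list was held at 5 UMIs by 75.9% and 23.9% and the airway list by 10.4% and 18.4%, the same direction between the libraries as in platelets alone. The erythroid list went the other way there, with 0.546% and 6.07%. The part of such RNA in the differences of platelets was not tested. With platelets alone restricted to those under 5 UMIs of every other list, 1054 genes had at least 50 UMIs. Of these, 19 (1.80%) were 2-fold higher and 13 (1.23%) lower, and 11 and 4 of them were also called among all platelets alone.

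Platelet-endothelial barcodes were 37 of 477 members (7.76%, 5.52 to 10.5) in the Cebpa FF and 27 of 240 (11.2%, 7.55 to 15.9) in the Cebpa KO library, shares whose intervals overlapped. They held a median of 3348 and 3792 UMIs. Their endothelial UMIs came from all 3 genes: *Pecam1*, an adhesion molecule that platelets also make, gave 32.6% and 35.1%, the endothelial cadherin *Cdh5* 31.1% and 27.8%, and the tight junction gene *Cldn5* 36.4% and 37.1%. In platelets alone *Pecam1* gave more of the few such UMIs, 51.4% and 43.8%. The number of endothelial UMIs had no gap at the limit of 5: 20 and 18 members had 5 to 9 of them and 17 and 9 had 10 or more. Among the 8% of barcodes with the highest Scrublet doublet scores in each library were 12 of 37 (32.4%) and 7 of 27 (25.9%) platelet-endothelial barcodes, against 5.91% and 7.04% of platelets alone. The automatic threshold of Scrublet called 0 barcodes in either library. A platelet attached to a vessel cell in the lung and one captured with it in a droplet cannot be told apart here.

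The rule, which asks for gate and endothelial UMIs, sets the gate genes and the endothelial list of this class between those of the other classes. The gate genes summed to 21019 CPM in the Cebpa FF and 22025 CPM in the Cebpa KO library, down from 41357 and 35942 CPM in platelets alone, with 87.6 and 116 CPM in endothelial barcodes outside the gate. The cytoskeleton list summed to 60467 and 79339 CPM, between 129394 and 122136 CPM in platelets alone and 10499 and 13554 CPM in endothelial barcodes. Nuclear RNAs were at 27020 and 18871 CPM, between 3396 and 7330 CPM and 52425 and 37016 CPM. The endothelial list was at 13437 and 10066 CPM, between 3023 and 2685 CPM and 21338 and 18234 CPM. Of these, the cytoskeleton and nuclear lists were not used by the rule. Not all other lists lay between. Megakaryocyte transcription factors were at 1676 and 1322 CPM, beside 1397 and 1128 CPM in platelets alone, with overlapping intervals, and above the 903 and 926 CPM of endothelial barcodes. The alveolar list was at 1245 and 605 CPM, below the 3627 and 2064 CPM of platelets alone and the 8238 and 2200 CPM of endothelial barcodes. The class was not uniform: the *Malat1* share was under 1% in 14 of 37 and 14 of 27 of its barcodes and 2% or more in 21 and 13. The lists of vessel types lay at different points between the classes. General capillary genes were at 2908 and 1486 CPM, against 413 and 355 CPM in platelets alone and 3204 and 2301 CPM in endothelial barcodes. Arterial genes were at 362 and 397 CPM, within counting error of the 382 and 356 CPM of endothelial barcodes. Genes of aerocytes, the large gas-exchange capillary cells, were at 311 and 709 CPM, against 307 and 272 CPM in platelets alone and 2290 and 2039 CPM in endothelial barcodes.

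**Figure D5:**
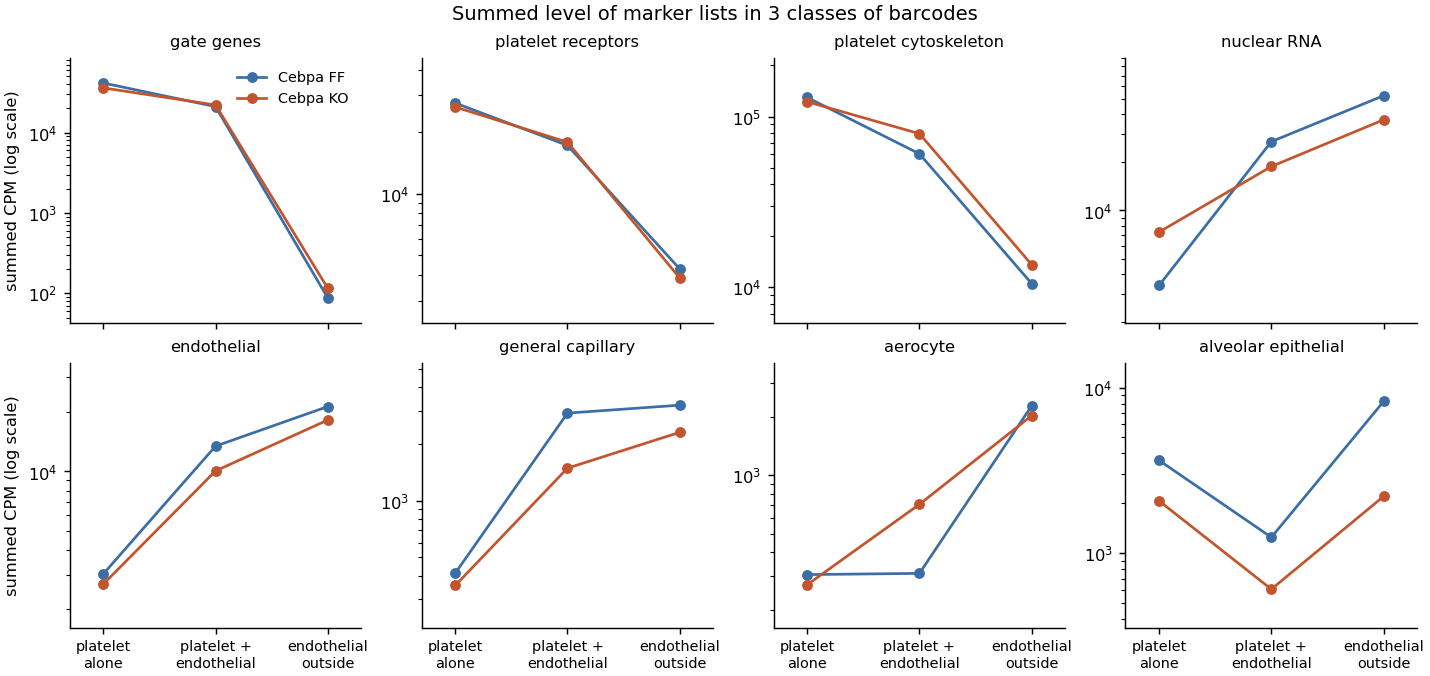
Summed CPM (log axes) of 8 marker lists in platelets alone, platelet-endothelial barcodes and endothelial barcodes outside the gate, with 1 line per library. Platelet lists fall and nuclear and endothelial lists rise from left to right in both libraries, and the aerocyte list of the Cebpa FF library is as low in platelet-endothelial barcodes (311 CPM) as in platelets alone (307 CPM).

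Vessel types were called from marker lists among all endothelial barcodes, members included. General capillary barcodes were members in 18 of 4479 cases (0.402%, 0.238 to 0.634) in the Cebpa FF and 9 of 2829 (0.318%, 0.146 to 0.603) in the Cebpa KO library. Aerocyte barcodes were members in 0 of 1467, with a Clopper-Pearson upper bound of 0.251%, and 1 of 1759 (0.0569%, 0.00144 to 0.316). No venous, arterial or lymphatic barcode was a member in either library, out of 172, 44 and 179 in the Cebpa FF and 64, 29 and 115 in the Cebpa KO library, which allows shares of up to 2.12%, 8.04% and 2.04% and of up to 5.60%, 11.9% and 3.16%. The other 19 and 17 had no vessel type called. The gate asks for 1% of UMIs, which a deep barcode reaches less easily, and aerocyte barcodes of the Cebpa FF library had a median of 6742 UMIs against 4625 for general capillary barcodes. In the Cebpa KO library the medians were the other way round, 4786 and 5416 UMIs. By the count of at least 5 gate UMIs alone the shares were nearer each other. They were 1.98% and 2.22% of aerocyte and 2.75% and 2.97% of general capillary barcodes. The part of depth in these differences between vessel types was not tested.

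Between the libraries, 875 genes had at least 50 UMIs in platelet-endothelial barcodes. Of these, 10 (1.14%) were at least 2-fold higher and 39 (4.46%) at least 2-fold lower in the Cebpa KO library, with a median log2 ratio of -0.10. With ratios centred on that median the counts were 19 and 29. Of the platelet lists, 58 of 85 genes were measured and none passed 2-fold (37 higher, 21 lower, median 0.17). The highest ratios were those of *Fcer1g*, the Fc receptor γ chain that signals with *Gp6* (1.71, 1.22 to 2.21), *AY036118* (1.46), *Tpm2* (1.36, 0.66 to 2.09), *Cyba*, a subunit of NADPH oxidase (1.35), *Atp2b1* (1.27), *Lyz2* (1.27), *Igfbp7* (1.26) and *Anxa5* (1.18). Outside the gate *Fcer1g* (4.41) and *Cyba* (1.18) were higher as well. *Fcer1g*, *Cyba* and *Lyz2* are also genes of myeloid cells, whose lists had more UMIs in the Cebpa KO library in this class: the monocyte and macrophage list had 1 and 30 UMIs, the neutrophil list 0 and 15 and calprotectin 0 and 24. Of the 27 Cebpa KO barcodes, 1 held at least 5 UMIs of the neutrophil list and 1 at least 5 of the monocyte and macrophage list. Their part in these ratios was not tested. *Tpm2* was thus higher in the Cebpa KO library in both classes of members. The lowest were *Hba-a1* (-2.95, -3.45 to -2.50, but -2.24 without the Cebpa FF barcode that held 191 of its UMIs), *Mcur1* (-2.64), *Sftpc* (832 and 207 CPM), *Pcdh17* (-1.82), *Tmem158* (-1.78), *Bmp6* (-1.63), *BC028528* (-1.59) and *Hist3h2a* (-1.46). *Plvap*, which forms the diaphragms of capillary fenestrae and caveolae, was at 870 and 354 CPM (-1.30, -1.84 to -0.78). It was lower outside the gate as well (-1.21), and the capillary gene *Tmem100* was at 1346 and 613 CPM (-1.13).

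Platelet RNA was also found beyond the members. Members held 25155 of 30525 gate UMIs (82.4%) in the Cebpa FF and 16309 of 23883 (68.3%) in the Cebpa KO library, in 0.997% and 0.774% of all UMIs. At least 5 gate UMIs under the 1% share were held by 234 (2.13%) and 279 (2.15%) of the barcodes outside the gate. Of these, 68.4% and 64.9% had at least 5 endothelial UMIs, and their median depth was 6170 and 5493 UMIs. At least 1 gate UMI was found in 11.8% and 20.7% of the barcodes outside the gate.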

How the data were processed

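scRNA-Seq of lung cells gave 1 library for each of 2 genotypes. The authors deposited whole UMI counts per gene and barcode, not normalized, made on mm10 with Cell Ranger (version 6.1.1 per the labels, 5.0.0 per the file headers) and limited to barcodes called as cells. Barcodes with at least 200 genes, at least 500 UMIs and at most 20% mitochondrial UMIs were kept, and doublets were kept. Counts were summed over the barcodes of a class and divided by all UMIs of the class (CPM). Log2 ratios used sums floored at 3 counts and exact conditional binomial intervals, CPM exact Poisson intervals, and shares exact Clopper-Pearson intervals, all at 95%. No p-value was computed, since barcodes are not replicates. Called genes were at least 2-fold apart among genes with at least 50 UMIs. Genes were named from lists of platelet function and of cell types, from the 15 highest CPM and the 15 most enriched genes, and from the 12 highest and 12 lowest ratios (8 and 8 in platelet-endothelial barcodes), and 2 genes of the lists or of this rule are not reported here. Members and lists were chosen with earlier results of these data known. A vessel type was called where a list had at least 5 UMIs and at least 2 times the next list. Gene positions were matched in GENCODE for GRCm38. Python 3.11.15, numpy 2.4.6, scipy 1.17.1, pandas 2.3.3, scanpy 1.11.5 (for Scrublet) and matplotlib 3.10.9 were used, and the ratios were tested on simulated data. Alternatives changed the filters, the gate, the endothelial limit, the scaling, the floor and the vessel call.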

Additional observations from a re-analysis of the deposited data

How the results depend on the processing

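No paired analysis was possible because there was 1 library per genotype. The log2 ratio of the share of platelets (-1.20) was -0.40 under a stricter filter (500 genes, 10% mitochondrial UMIs), -0.49 with at least 1000 UMIs and -0.66 with no minimum share of gate genes. It was -0.74 with at least 766 UMIs and 0.73, the opposite direction, with at least 3000 UMIs, limits that were chosen after seeing the data. The share of Cebpa FF members with endothelial UMIs (7.76%) was 15.1% under the stricter filter, 3.17% under a gate of 10 UMIs and 2%, 12.9% with at least 1000 UMIs, 17.0% and 3.56% with limits of 3 and 10 endothelial UMIs, and 10.8% with at least 766 UMIs. For Cebpa KO members (11.2%) it was 5.64% under the stricter gate, and 26.2% and 3.75% with those limits. The median log2 ratio of the platelet lists (-0.01) was -0.12 under the stricter filter and 0.043 with a limit of 3 endothelial UMIs.

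The 50 genes higher and 27 lower in platelets alone became 33 and 24 with a limit of 3 endothelial UMIs, of which 24 and 12 were shared, and 19 and 13 without barcodes holding other lists, of which 11 and 4 were shared. They were 265 and 112 among genes with at least 20 UMIs and 7 and 3 among genes with at least 200 UMIs. Chosen after seeing the data, they were 38 and 25 without the deepest Cebpa KO barcode (35 and 23 shared). Higher genes were 64.9% of those called, and 72.2% (57 against 22 lower) when *Gm42418*, *AY036118*, *Gm26917* and *Lars2*, which overlap rRNA sequence or take such reads, were left out of the denominator. In platelet-endothelial barcodes the 10 higher and 39 lower genes were 8 and 13 with a limit of 10 endothelial UMIs, 4 and 8 among genes with at least 200 UMIs, and 19 and 29 when centred, which moved the higher share from 20.4% to 39.6%.

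With at least 766 UMIs the share of Cebpa FF platelets alone with another list (53.9%) was 58.9%, and their *Malat1* level (3111 CPM) was 2474 CPM. Members among endothelial barcodes without a called vessel type were 4.55% and 1.01% under the looser vessel call, in place of 1.58% and 0.611%. Under that call 1 of 317 and 1 of 202 lymphatic barcodes were members, and 1 of 1556 and 5 of 2388 aerocyte barcodes. The causes were not tested. The other 62 values for comparisons and 352 values for single genes moved by less than their counting interval or, for counts of genes, by less than 1.5 times, and 38 values for single genes moved by more. These were ratios in platelets alone of *Malat1* (1.08, from 0.37 to 1.55), *Fos* (2.66, from 1.08 to 3.45), *Sftpc* (-1.23, from -2.83 to -0.74), *Cxcl15* (-1.32, up to -0.54), *Hba-a1* (-2.17, up to -1.65), *Thbs1* (0.48, from 0.30 to 0.59), *H2-Ab1* (1.56, up to 2.78), *Tpm2* (1.21, up to 1.55), *Pf4* (from 0.015 to 0.15) and *Ppbp* (0.00 without barcodes holding other lists). Depth limits low genes most, since platelets alone held a median of 987 and 1458 UMIs, and the 27 to 37 platelet-endothelial barcodes limit that class.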

Other observations

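Gate UMIs under the 1% share were also found in barcodes with markers of other cells, taken after the values were seen. Among barcodes outside the gate with at least 5 UMIs of the erythroid list, 18 of 71 (25.4%) in the Cebpa FF and 22 of 804 (2.74%) in the Cebpa KO library held at least 5 gate UMIs. For the B cell list the shares were 7.14% and 3.36%, for the neutrophil list 4.93% and 1.61%, and for the fibroblast list 1.81% and 3.02%. These barcodes differed in depth, with medians of 7252 and 1703 UMIs for the erythroid list and 21824 and 3551 UMIs for the neutrophil list, and the part of depth in these shares was not tested.

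Ribosomal protein genes of platelets alone summed to 37395 and 41869 CPM, and of the 76 of 97 genes with at least 50 UMIs, 59 were higher and 17 lower in the Cebpa KO library, 0 by 2-fold (median log2 ratio 0.15). *Cebpg*, a relative of *Cebpa* in the C/EBP family, was at 123 and 133 CPM in platelets alone (0.11, -0.44 to 0.67), and *Cebpd* had 16 and 28 UMIs.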
